A study of Mus musculus with 39 samples.

Results

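The comparison set 16 arrays of leukemic pre-B cells against the 9 arrays of normal B cells that carry surface IgM, so 25 of the 39 arrays in the series were used. The arrays were chosen by their labels alone: every array labelled as leukemic pre-B, and the 6 immature B and 3 mature B arrays pooled. All fractions came from mouse bone marrow and were sorted on B220, an isoform of CD45, and on absence of CD43. The leukemic gate was that of pre-B cells (IgM- IgD-). Immature B cells carried IgM without IgD (IgM+ IgD-), and mature B cells carried both (IgM+ IgD+). The series title gives the leukemia as MLL-AF4, and the label of leukemic array 116 names an Mll-AF4stop knock-in mouse without stating that it was leukemic. The labels of 5 leukemic arrays (A992, A1322, A1507, 270 and A46) place leukemia after treatment with pIpC, a synthetic RNA duplex that raises interferon. Normal cells came from adult mice. Strain, sex, the cells in which the fusion allele was active and the number of animals behind each array were not given in the labels, so p-values measure the spread between these arrays. RNA was amplified from small amounts and hybridised to Affymetrix arrays, and every level below is a log2 intensity.

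B cells of the marrow first rearrange the immunoglobulin heavy chain as pro-B cells and then, as pre-B cells, pair it with the surrogate light chain encoded by Vpreb1 and Igll1. After a burst of division, a pre-B cell rearranges a light chain, puts IgM on its surface as an immature B cell, and leaves the cell cycle. Mature B cells add IgD, the receptors for follicular homing and the full machinery to present antigen to T cells. MLL (Kmt2a) is a histone methyltransferase, and its fusion to AF4 (Aff1) drives leukemias that stop at an early B stage. The comparison addressed which genes of the IgM-positive stages were low in such arrested cells and which B-lineage genes were at similar levels.

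Array medians lay between 6.36 and 6.70 on the log2 scale. Immature B arrays 2 and 3 were nearly identical: over genes with a mean above 7, their differences had an SD of 0.126, while the other 14 pairs of immature arrays had SDs of 0.322 to 0.646. Averaging that pair to 1 array gave 3696 called genes in place of 3995. Leukemic array 122 stood apart from its label. Its mean over the pan-B genes was 8.70 and that of the next lowest leukemic array 10.1, and the lineage factor Ebf1 was at 7.27 there and at 10.95 or above on the other leukemic arrays. The same array had the highest leukemic mean for myeloid markers (9.54), dendritic cell markers (9.07) and interferon response genes (9.10). Counts that moved without that array are given with and without it. Without it 4222 genes were called, 3925 of them among the 3995. The accession numbers fall into 2 runs. Run 1 holds 12 leukemic and 3 immature arrays, and run 2 holds 4 leukemic, 3 immature and all 3 mature arrays. The difference between 3' and 5' actin probe sets was 1.29 ± 0.088 (SD, n = 15) in run 1 and 0.80 ± 0.153 (SD, n = 10) in run 2. The same difference for Gapdh, a sign of RNA quality, moved with the comparison: it was 0.973 ± 0.0916 (SD, n = 16) on leukemic, 1.26 ± 0.191 (SD, n = 6) on immature and 1.59 ± 0.107 (SD, n = 3) on mature B arrays, and its part in the results was not tested. Within run 1 alone 1584 genes were called and within run 2 alone 4324.

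Of 12393 genes, 3995 (32.2%) passed an adjusted p of 0.05 in limma, 1976 lower (15.9%) and 2019 higher (16.3%) in the leukemic arrays. The median difference over all genes was 0.05. Among the called genes, 806 were at least 2-fold lower (6.50% of all) and 630 at least 2-fold higher (5.08%). In 249 of the lower genes (2.01% of all) and 308 of the higher genes (2.49%) no leukemic array overlapped any IgM-positive array. Against immature B cells 25.6% of genes were called and against mature B cells 22.3%. Against immature B cells 1579 genes were lower (12.7%) and 1594 higher (12.9%), and against mature B cells 1338 (10.8%) and 1425 (11.5%). Beside these, the comparison with normal pre-B cells, which shares the leukemic arrays, called 933 genes lower (7.53%) and 1054 higher (8.50%). In sorted bulk samples, fewer cells of a type and less RNA per cell cannot be told apart.

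**Figure D1:**
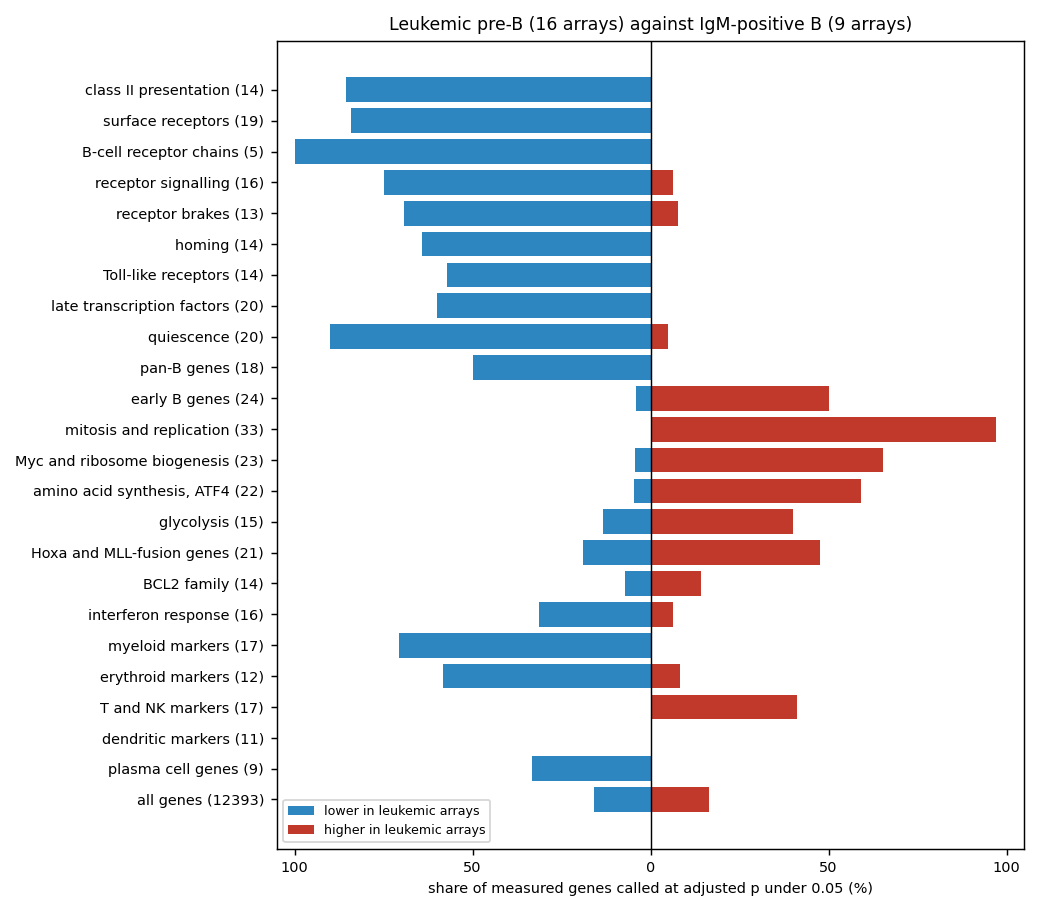
Bars give, for each gene list and for all genes, the share of measured genes called lower (left) or higher (right) in the 16 leukemic arrays than in the 9 IgM-positive arrays at an adjusted p under 0.05 in limma; the number of measured genes is in parentheses. Class II presentation, with 12 of 14 genes lower, and mitosis and replication, with 32 of 33 higher, lie on opposite sides, against 15.9% lower and 16.3% higher among all genes.

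Surface receptors of the later B cell were low on the leukemic arrays. Of 19 measured, 16 were lower and 0 higher in the leukemic arrays, with a median difference of -2.35, and without array 122 the count was the same. Ms4a1, which encodes the B-cell surface protein CD20, had leukemic values from 4.64 to 10.84 with a median of 7.30. On the IgM-positive arrays it ran from 12.14 to 12.66 with a median of 12.42, so every leukemic array lay below every IgM-positive one. The difference was 33.3-fold (-5.06, SE 0.47, adjusted p = 5.37e-09). Fcer2a (CD23), a low-affinity IgE receptor of follicular B cells, had leukemic values from 3.68 to 5.67 with a median of 4.10. The 6 immature arrays averaged 7.59 and the 3 mature arrays stood at 11.29, 10.14 and 10.86, above all others. The leukemic mean of 4.26 did not differ detectably from that of normal pre-B cells (4.29; difference -0.03), and both were at the background limit. Cr2 (CD21), a complement receptor, was likewise without overlap, from 4.08 to 6.83 on leukemic and 6.89 to 10.70 on IgM-positive arrays. Its difference was -1.95 from immature and -4.12 from mature B cells. Cd40, which receives T-cell help, was 17.0-fold lower (7.01 ± 0.96, SD, n = 16, against 11.10 ± 0.36, SD, n = 9). Ly6d, a surface protein of committed B progenitors, was 16.2-fold lower, and Ltb, a lymphotoxin subunit that organises follicles, was lower (-3.33), both on 16 of 16 arrays. Cd83, which stabilises class II at the surface, was lower (-4.25), and leukemic values there spread from 3.92 to 10.71. The members not called were Cd1d1 (-0.70), Tnfrsf1b (-0.31) and the costimulatory Cd80 (-0.29).

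**Figure D2:**
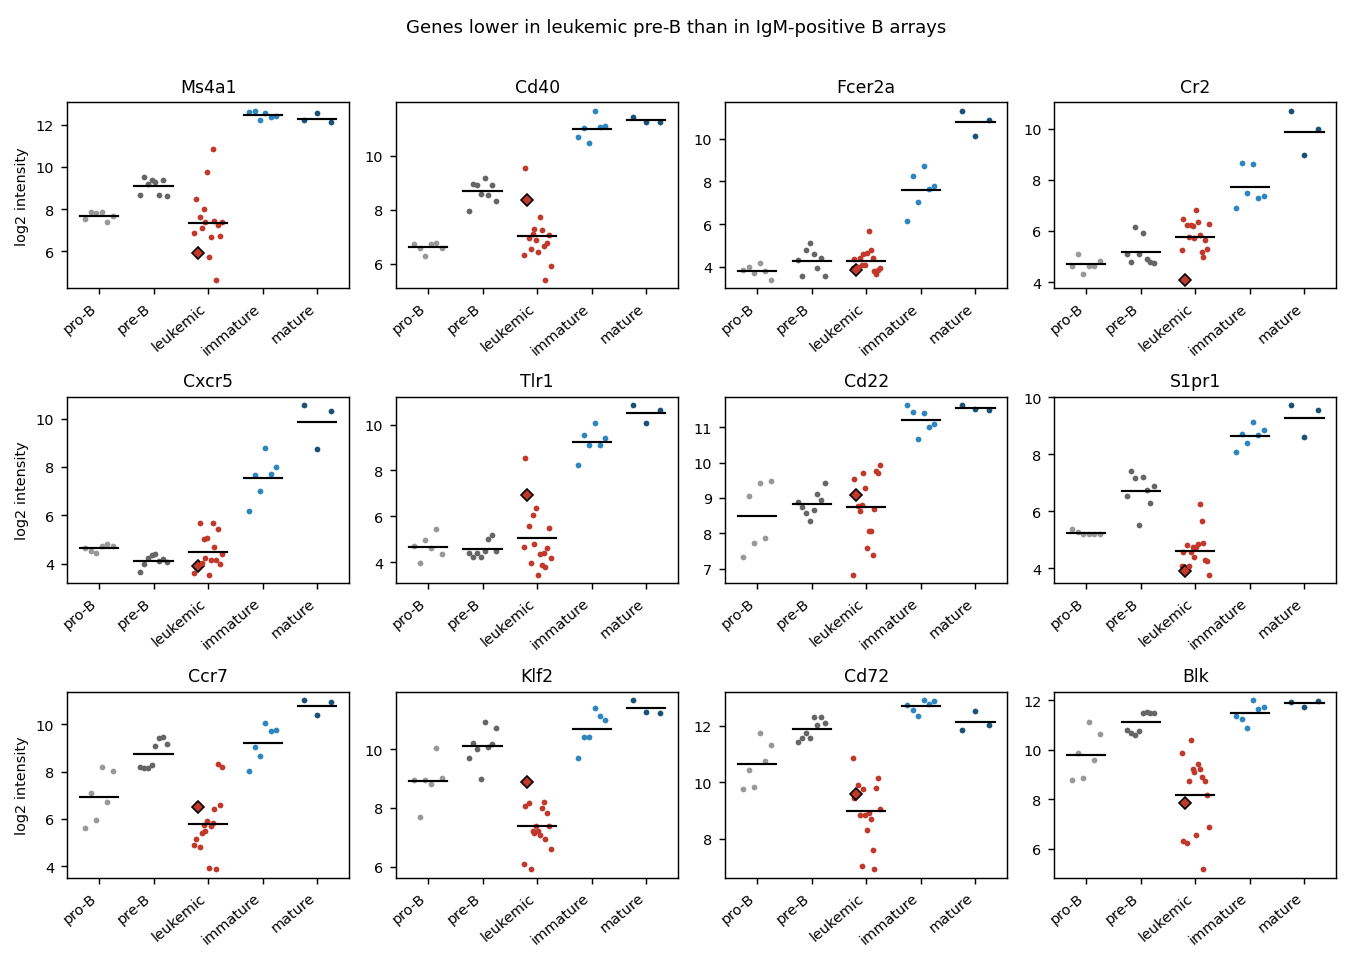
Points are log2 intensities of 12 genes on single arrays of the normal pro-B (6), normal pre-B (8), leukemic (16), immature B (6) and mature B (3) groups, lines are group means, and the outlined diamond is leukemic array 122. Fcer2a, Cr2, Cxcr5, Tlr1 and Cd22 were near the normal pre-B level on leukemic arrays, while S1pr1, Ccr7, Klf2, Cd72 and Blk lay below it.

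Where the leukemic cells lay against normal pre-B cells divided the low genes. Among the 806 genes called at least 2-fold lower, the leukemic mean was within 2-fold of the normal pre-B mean in 533, at least 2-fold below it in 261 and at least 2-fold above it in 12. In 355 of the 806, the normal pre-B mean itself was at least 2-fold under the IgM-positive mean. All 15 surface receptors and all 10 class II genes that were 2-fold lower belonged to those 355. In the quiescence list this held for 1 of 9 such genes, and 7 of the 9 were at least 2-fold under the normal pre-B mean. These counts describe group means and carry no test.

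Class II presentation genes were low together. Of 14 measured, 12 were lower and 0 higher (median -2.08), also without array 122. Ciita, the coactivator that switches on class II transcription, had a leukemic median of 5.79 (lowest 4.17) and ran from 6.53 to 11.31 on IgM-positive arrays (median 9.05). Leukemic and IgM-positive values overlapped, with 12 of 16 leukemic arrays below every IgM-positive one (-3.16, SE 0.49, adjusted p = 1.06e-05). It was -2.35 against immature and -4.79 against mature B cells. H2-DMb2 and H2-DMa, subunits of the chaperone that loads peptide, were lower (-3.44 and -2.75). Cd74, the invariant chain, had leukemic values from 8.17 to 13.09, and 15 of 16 arrays lay below every IgM-positive array (-2.46, SE 0.42). The peptide-binding chains H2-Eb1, H2-Aa and H2-Ab1 were 5.93-fold, 4.70-fold and 3.48-fold lower with overlap between groups. Ifi30, a reductase of the antigen compartment, differed without overlap (-2.54). Rfxap, a subunit of the RFX complex that binds class II promoters, did not pass the test (0.05, 95% interval within 1 on either side), nor did H2-Ea (0.09). H2-Ea was dim, with means of 4.59 on leukemic and 4.50 on IgM-positive arrays against a background limit of 4.26. Within run 1 only 3 of the 14 were called, among 12 leukemic and 3 immature arrays, and H2-Aa, H2-Eb1, Cd74 and Ciita were among those not called, at -1.01, -1.03, -1.99 and -1.52.

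Class II promoters carry an X box, bound by RFX, and a Y box with the letters CCAAT, bound by NF-Y. Stretches from 100 to 21 bases before the start of class II genes with low leukemic levels are shown, from RefSeq on GRCm38.p6, with CCAAT on either strand (ATTGG on the other) and the X box core AGCAAC in capitals.
H2-Eb1 (chr17:34305767-34305846, plus strand): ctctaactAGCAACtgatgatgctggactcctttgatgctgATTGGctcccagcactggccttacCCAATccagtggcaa
H2-Aa (chr17:34287844-34287923, minus strand): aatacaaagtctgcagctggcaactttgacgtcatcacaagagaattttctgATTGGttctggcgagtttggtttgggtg
H2-DMb2 (chr17:34145149-34145228, plus strand): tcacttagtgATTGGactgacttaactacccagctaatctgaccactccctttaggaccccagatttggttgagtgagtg
Of the 14 measured genes, 9 matched a window in the promoter table, 10 windows in all, each of 300 bases. CCAAT stood in 7 of the 10 windows and both motifs in 3, compared with 37.4% and 5.84% of all 32851 promoter windows, and AGCAAC alone was in 14.8% of all. These windows include Rfx5, Rfxank, Ctss and Ifi30, which do not encode class II chains. Rfx5 held both motifs, Rfxank held CCAAT, and Ctss and Ifi30 held neither. H2-DMa, also lower, had no match in its first window and CCAAT at -198 in the other. Every stretch shown above holds CCAAT, but the stretches were a choice among the windows, and no H2-DMa window holds CCAAT in that span. A match is a run of letters and not a measured binding site.

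The receptor complex was mostly lower. The leukemic cells were sorted as IgM- and the compared cells as IgM+, so the part of the sort in these chains cannot be told apart. On the brightest probe set of each gene, 5 of 5 measured chains were lower and 0 higher, with and without array 122, but the direction of 1 of them, Ighm, changed with the choice of probe set. Within run 1 the count was 2. Iglv1, a lambda light chain segment, had the largest deficit of these 5, at 4.85 to 10.30 on leukemic and 11.13 to 12.56 on IgM-positive arrays (-4.56, SE 0.47, adjusted p = 2.75e-08). Igk, the kappa light chain, was 3.09-fold lower, and the kappa segments Igkv6-14 and Igkv6-15 were lower (-4.87 and -4.76), all without overlap. Variable segments are close in sequence, so their probe sets may share signal. The signal chain Cd79a was 2.67-fold lower (-1.42), and lower without array 122 (-1.14). Its partner Cd79b was 2.36-fold lower on 16 of 16 arrays. The heavy chain Ighm was 0.97 lower on its brightest probe set (-0.97), with other Ighm probe sets called in either direction, so its direction was not settled.

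Kinases and adaptors downstream of the receptor followed: 12 of 16 were lower and 1 higher (median -0.85), with 7 lower within run 1. Blk, a Src-family kinase, ranged from 5.18 to 10.38 on leukemic arrays and stood at 10.89 or above on IgM-positive arrays, with no overlap (-3.43, SE 0.48). Syk, the kinase that docks on Cd79a and Cd79b, was 3.22-fold lower in a narrow spread (9.97 ± 0.39, SD, n = 16, against 11.66 ± 0.33, SD, n = 9; adjusted p = 2.33e-09). The adaptor Blnk was lower (-1.69), the phospholipase Plcg2 lower (-1.10) and Pik3ap1, an adaptor to PI3 kinase, lower (-1.24). Pik3ap1 was not called against mature B cells (-0.37) or within run 2 (-0.35). The Src-family kinase Fyn, named after its value was seen, was higher (0.78), and Rasgrp2, Pik3cd and Vav2 did not pass the test. Against normal pre-B cells Blk and Syk were lower too (-2.93 and -1.71), while Plcg2 differed by -0.20 and was not called.

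Inhibitory receptors and phosphatases, which restrain the receptor, were also low, with 9 of 13 lower and 1 higher (median -1.82). The higher member was the inositol phosphatase Inpp5d (0.31), named after its value was seen, and its call was lost with the run as a covariate, within run 2 and without the 4 IgM-positive arrays of highest myeloid mean. Fcrl1, an Fc receptor-like surface protein, was 15.8-fold lower on 16 of 16 arrays. Cd72, a coreceptor with an inhibitory tail, ran from 6.91 to 10.88 on leukemic and 11.87 to 12.92 on IgM-positive arrays (-3.54, SE 0.36), and was 2.90 under normal pre-B cells (-2.90). Cd22, a sialic acid-binding inhibitory receptor, was 5.93-fold lower than in IgM-positive cells (-2.57) with no overlap, and differed from normal pre-B cells by -0.09, which was not called. Its effector phosphatase Ptpn6 (SHP-1) had the same layout, at -2.21 and -0.08. Fcrla, an intracellular relative, was lower (-3.07). Ptpn22, a phosphatase of antigen receptor signals, was not called: it differed by 1.11 from the pooled cells (95% interval 0.05 to 2.18, adjusted p = 0.106), by 1.83 from immature B, which was called, and by -0.31 from mature B cells, which was not. It was 3.54 above normal pre-B cells.

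Receptors for exit and follicular homing were low in 9 of 14 cases with 0 higher (median -1.50), and in 10 without array 122. Within run 1 the count was 5 and within run 2 it was 12. S1pr1, the receptor by which lymphocytes leave the marrow, ran from 3.78 to 6.26 on leukemic and from 8.09 to 9.71 on IgM-positive arrays, an 18.9-fold difference without overlap (-4.24, SE 0.25, adjusted p = 2.85e-12). Klf2, the factor that activates S1pr1, was 11.6-fold lower without overlap (7.38 ± 0.79, SD, n = 16, against 10.91 ± 0.62, SD, n = 9). Both were also under normal pre-B cells, by 2.11 and 2.72 (-2.11 and -2.72). Cxcr5, which leads B cells into follicles, was lower than in immature (-3.09) and than in mature B cells (-5.40), and near its normal pre-B level. Ccr7, the receptor for the T-cell zone, overlapped on 2 leukemic arrays (-3.94, SE 0.46). Ccr6 was lower (-2.71), and Cd55, a complement regulator, 10.5-fold lower. Cxcr4, which holds B-cell progenitors in the marrow, was at 12.31 ± 0.21 (SD, n = 16) against 12.40 ± 0.09 (SD, n = 9) and was not called, nor were Itga4 (-0.04) and Cd44 (0.09), which are adhesion receptors, and all 3 intervals lay within 1 of no difference. Within run 2 Itga4 (-0.82) and Cxcr4 (-0.30) were called lower.

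Among Toll-like receptors and cofactors, 8 of 14 were lower and 0 higher (median -0.63), while 9 were lower without array 122 and 3 within run 1. Tlr1, which pairs with Tlr2 to sense bacterial lipoprotein, was 24.4-fold lower, with 15 of 16 leukemic arrays below every IgM-positive array. Cd180 and its partner Ly86, which tune B-cell responses to endotoxin, were lower (-2.39 and -2.84), and leukemic array 122 had the highest leukemic value of both (9.59 and 11.96). Unc93b1, which escorts nucleic acid-sensing receptors to endosomes, was lower without overlap (-1.99). Traf6 (0.13), Myd88 (-0.42) and Ly96 (-0.51) did not pass. Without the 4 IgM-positive arrays of highest myeloid mean, the count was 5 in place of 8, and Tlr2 (-1.37) and Tlr6 (-0.55) were among those no longer called.

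Transcription factors of later B cells were lower in 12 of 20 cases and higher in 0 (median -1.03), also without array 122, and lower in 7 within run 1. Klf3, a repressor tied to B-cell subset choice, was 8.50-fold lower with 14 of 16 arrays below every IgM-positive one. Egr2, an immediate early factor of receptor signals, was lower (-2.61), and Relb, an NF-kappaB subunit, lower (-2.01). Pou2f2 (Oct-2), an octamer factor of B cells, was lower without overlap (-1.86, SE 0.16). Spib, an Ets factor of B cells, was 3.05-fold lower and 1.36 under normal pre-B cells (-1.36). Irf4 (-0.49), Ets1 (-0.45) and Pou2af1 (-0.38), the octamer coactivator, were not called.

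Genes of the quiescence list were lower in 18 of 20 cases and higher in 1 (median -0.93). That list also held the AP-1 genes Fos and Jun, which are immediate early genes and not markers of rest. Fos was 13.5-fold lower without overlap (5.71 to 10.17 against 11.63 to 12.44), and Jun was 7.86-fold lower with overlap. Klf4, a growth-restraining factor, was lower (-2.61), and Slfn2, which keeps lymphocytes resting, lower (-2.66). Cdkn1a (p21), an inhibitor of cyclin-dependent kinases, was the one higher member at 4.17-fold, on 15 of 16 arrays above every IgM-positive array. Its normal pre-B level was 8.23, near the leukemic 8.48. Within run 1 the count of lower genes was 9.

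**Figure D3:**
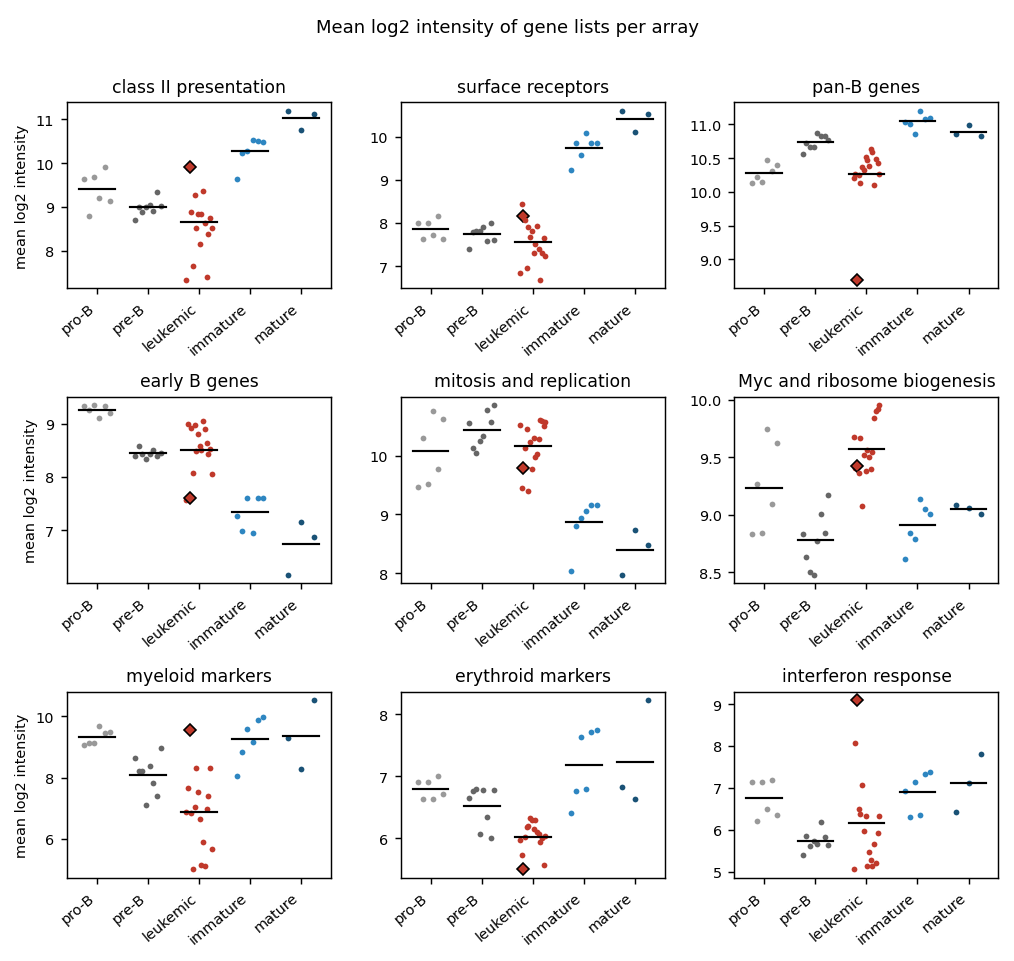
Each point is the mean log2 intensity of 1 gene list on 1 array, grouped by normal pro-B, normal pre-B, leukemic, immature B and mature B, with group means as lines and leukemic array 122 as an outlined diamond. The surface receptor mean of all 16 leukemic arrays lay below all 9 IgM-positive arrays and the mitosis mean above all 9, while array 122 was lowest for pan-B genes and highest among leukemic arrays for myeloid markers and interferon response.

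Pan-B genes were lower as a list, while several members were at similar levels in both groups, and some values depended on array 122. The list mean of 16 of 16 leukemic arrays (highest 10.64) lay below that of every IgM-positive array (lowest 10.83). Of 18 measured, 9 were lower and 0 higher (median -0.41), against 15.9% lower and 16.3% higher among all genes. In 7 the 95% interval lay within 1 on either side of 0 with both groups above background. That held for 48.6% of all genes (36.8% when called genes are left out). The share of pan-B genes in that band was therefore not above that of all genes. Without array 122, 9 were lower and 1 higher, and within run 1 2 were lower. Ebf1, the factor that specifies the lineage, had leukemic values from 7.27 to 11.56 with a median of 11.22, and IgM-positive values from 11.12 to 11.60 with a median of 11.37. The difference was -0.35 (95% interval -1.01 to 0.30), and -0.11 without array 122. Vpreb3, a chaperone of immunoglobulin chains, differed by -0.21 with array 122 and by 0.08 without it. Tcf4, an E protein, was at 11.54 ± 0.40 (SD, n = 16) against 11.71 ± 0.09 (SD, n = 9), and Myb, a progenitor factor that normal mature B cells lower, differed by 0.33 from the pooled cells and by 0.87 from mature B cells. Pax5, which holds the B-cell identity, was lower (-1.21, SE 0.22), with 14 of 16 arrays below every IgM-positive array, and differed from normal pre-B cells by -0.27, which was not called. Cd2, an adhesion receptor of late pre-B cells and after, was 5.02-fold lower, and Ptprc, whose B220 isoform defined the gate, 2.32-fold lower on 16 of 16 arrays. Spn, which encodes CD43, was 2.26-fold higher, and all fractions were sorted as CD43-. It was dim, at 5.64 on leukemic and 4.46 on IgM-positive arrays against a background limit of 4.26. Spn was not called against mature B cells or against normal pre-B cells.

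Early B genes stood on the other side. Of 24 measured, 12 were higher and 1 lower (median 1.17), and 13 and 1 without array 122. The lower member was Cd9 (-1.74), a surface tetraspanin. Vpreb1 ran from 9.16 to 13.45 on leukemic arrays (median 12.95) and from 7.14 to 11.09 on IgM-positive arrays (median 8.40). Array 122 was the sole leukemic array within the IgM-positive range, the next lowest being 12.55, and the difference was 14.3-fold with it (3.84, SE 0.46) and 4.08 on the log2 scale without it. Igll1 was 14.7-fold higher on its brighter probe set (3.88), with array 122 at 6.66 and the others at 10.50 or above. A dimmer Igll1 probe set was called lower (-1.22), so the direction of Igll1 rests on the choice of probe set. The recombinase gene Rag2 was 8.99-fold higher (3.17, SE 0.43), from 4.63 to 10.56 against 4.18 to 6.07, and 3.42 higher without array 122. Rag1 was 2.12 higher, and below normal pre-B cells by 1.60 (-1.60). Il7r, which gives the interleukin-7 signal for growth of progenitors, was 1.73 higher. That difference came to 0.91 against immature B cells, which was not called (adjusted p = 0.0638), and to 3.36 against mature B cells. Erg, an Ets factor of progenitors, was 7.18-fold higher, Gfra2, a co-receptor for neurturin, 9.47-fold higher and Socs2, a feedback inhibitor of cytokine signals, 8.26-fold higher. Dntt, which adds nucleotides at the joins, spread from 3.91 to 10.95 over leukemic arrays and was not called (0.49), and Cd93, a marker lost at maturity, differed by 0.46 from the pooled cells and by 1.78 from mature B cells. Without the 4 IgM-positive arrays of highest myeloid mean, 9 early genes were higher and 0 lower, and within run 1 5 were higher. Of the 10 early genes at least 2-fold higher, the leukemic mean was at least 2-fold above the normal pre-B mean in 6. It was within 2-fold of it in 3 and at least 2-fold below it in 1. Among all 630 such genes these counts were 206, 421 and 3. Over the 24 early genes, 3 were called higher and 6 lower than in normal pre-B cells.

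**Figure D4:**
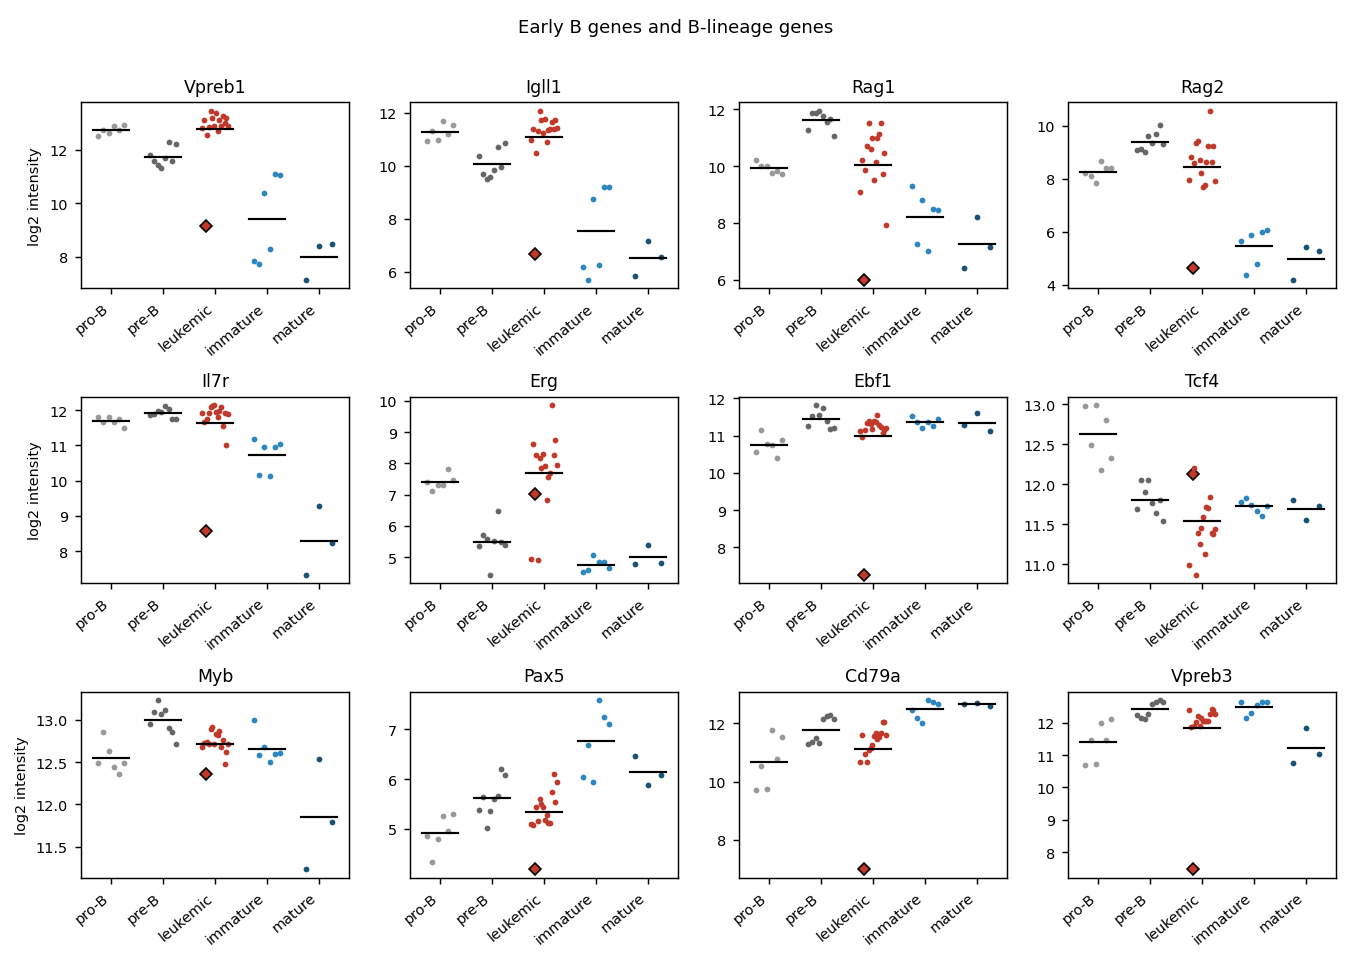
Log2 intensities of 6 early B genes (Vpreb1 to Erg) and 6 pan-B genes (Ebf1 to Vpreb3) on single arrays of the 5 groups, with group means as lines and leukemic array 122 as an outlined diamond. Vpreb1, Igll1 and Rag2 were high on all leukemic arrays but array 122, and that array was also the lowest leukemic one for Ebf1, Cd79a and Vpreb3.

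Genes of mitosis and DNA replication were higher almost throughout, 32 of 33 with 0 lower (median 1.57), and the list mean of 16 of 16 leukemic arrays exceeded that of every IgM-positive array. Without array 122 the count was again 32, and within runs 1 and 2 it was 30 and 31. Cdc6, which loads the replicative helicase, ran from 7.16 to 9.56 on leukemic and 4.50 to 7.03 on IgM-positive arrays, with no overlap (2.34, SE 0.30). Ccnb2, a mitotic cyclin, was 1.99 higher, the checkpoint kinases Bub1b and Bub1 1.93 and 1.91 higher, the polymerase subunit Pola1 2.01 higher and Mki67, the proliferation marker, was at 12.07 against 11.07. Cdt1, the partner of Cdc6, did not pass (-0.02). All 28 members that were at least 2-fold higher lay within 2-fold of the normal pre-B mean, as did 421 of the 630 such genes among all genes. Against normal pre-B cells, 5 of the 33 were called lower and 0 higher (median -0.27).

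Myc and ribosome biogenesis genes were higher in 15 of 23 cases and lower in 1, the Myc antagonist Mxd4 (-0.90, named after its value was seen; list median 0.75). Myc ran from 8.66 to 11.51 on leukemic arrays (median 10.82) and from 7.83 to 10.48 on IgM-positive arrays (median 9.13), 2.36-fold higher overall. It was 1.65 above immature B cells and 0.41 above mature B cells, the latter not called (adjusted p = 0.53), and 2.73 above normal pre-B cells. The nucleolar proteins Nolc1, Nop58 and Gnl3 were 1.12, 1.10 and 1.07 higher, and Cad, which starts pyrimidine synthesis, 1.22 higher. Max (-0.06), the partner of Myc, Odc1 (0.16) and Mxi1 (0.21) were not called.

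Synthesis of amino acids and related ATF4 targets were higher in 13 of 22 cases and lower in 1, the stress factor Ddit3 (-0.75, named after its value was seen; list median 0.78). Asns, which makes asparagine, ran from 7.93 to 10.79 on leukemic and from 4.84 to 7.67 on IgM-positive arrays without overlap, 5.71-fold higher (SE 0.35 on the log2 scale, adjusted p = 2.59e-06). Cth, which makes cysteine, was 2.75 higher, with IgM-positive values under the background limit of 4.26 on average. The leucine transporter subunit Slc7a5 was 4.97-fold higher, the serine enzyme Psat1 3.06-fold, and the folate enzymes Shmt1 and Mthfd2 1.87 and 1.69 higher on the log2 scale. Atf4 itself (-0.29), Slc3a2 (-0.23) and Sesn2 (0.07) were not called. Of 15 glycolysis genes, 6 were higher and 2 lower, and 6 and 4 without array 122: Slc16a1, a lactate transporter, Ldha and Hk2 were 1.58, 1.05 and 1.03 higher, and Ldhb and the glucose transporter Slc2a1 were lower (-2.65 and -0.49).

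Among all genes without overlap, the 10 with the largest leukemic excess were Ada, Nt5dc2, Lxn, Fads2, Uck2, Cdk6, Cth, Acot7, Cpne2 and Abhd15. Ada, which breaks down adenosine, was 9.23-fold higher, from 7.72 to 10.51 against 4.66 to 6.88 (adjusted p = 3.18e-09). Uck2, which salvages uridine and cytidine, was 7.45-fold higher in a narrow leukemic spread (10.36 ± 0.32, SD, n = 16). The fatty acid desaturase Fads2 was 3.05 higher, the carboxypeptidase inhibitor Lxn 3.06, Nt5dc2 3.16, and Acot7, an acyl-CoA thioesterase, 2.70. Cpne2 and Abhd15 differed by 2.67 and 2.65. The 10 with the largest deficit were Ms4a1, Lcn2, Igkv6-14, Igkv6-15, Hbb-b2, a segment of the Igkv15 family, Iglv1, Camp, Srpk3 and Fcer2a. Srpk3, a kinase of splicing factors, was 21.5-fold lower on its brighter probe set (6.52 ± 1.11, SD, n = 16, against 10.94 ± 0.41, SD, n = 9). Its other probe set lay under the background limit in both groups and was not called (-0.14). Lcn2 and Camp are neutrophil granule genes and Hbb-b2 is a globin, and these are described with the markers of other cells.

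Hoxa genes and others associated with MLL fusions were higher in 10 of 21 cases and lower in 4 (median 0.23). Hoxa9, the homeobox factor that MLL keeps active in progenitors, ran from 3.24 to 11.24 on leukemic arrays (median 10.77) and from 2.76 to 4.53 on IgM-positive arrays. On 13 of 16 leukemic arrays it exceeded every IgM-positive array, and the others were arrays 116, 117 and 154 at 3.78, 4.52 and 3.24. The difference of 5.77 (SE 0.90, adjusted p = 1.2e-05) has no resolved size, since the IgM-positive mean of 3.63 lay under the background limit. Hoxa10, Lhx2, a LIM homeobox factor, and Meis1, the partner of Hoxa9, were 3.96, 4.24 and 2.21 higher, again from IgM-positive means under that limit. Normal pro-B arrays held Hoxa9 at 6.86 to 8.08 and normal pre-B arrays at 3.43 to 4.83. Hoxa5 was 2.02 higher, and Cdk6, a G1 kinase, 6.84-fold higher without overlap. Kmt2a was 3.31-fold lower on 16 of 16 arrays, with arrays 17 and A46 at 6.44 and 6.52 and the others at 9.55 or above. Arrays 17 and A46 enlarge that mean difference. The part of the MLL-AF4 fusion allele in the Kmt2a level was not tested. The other lower members were Lmo2 (-1.54), Jmjd1c (-0.36) and Aff1 (-0.36), of which Lmo2 and Jmjd1c were named after their values were seen. Mef2c, Zeb2 and Pbx3 were not called. Within run 1 the list had 3 higher and 2 lower genes.

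**Figure D5:**
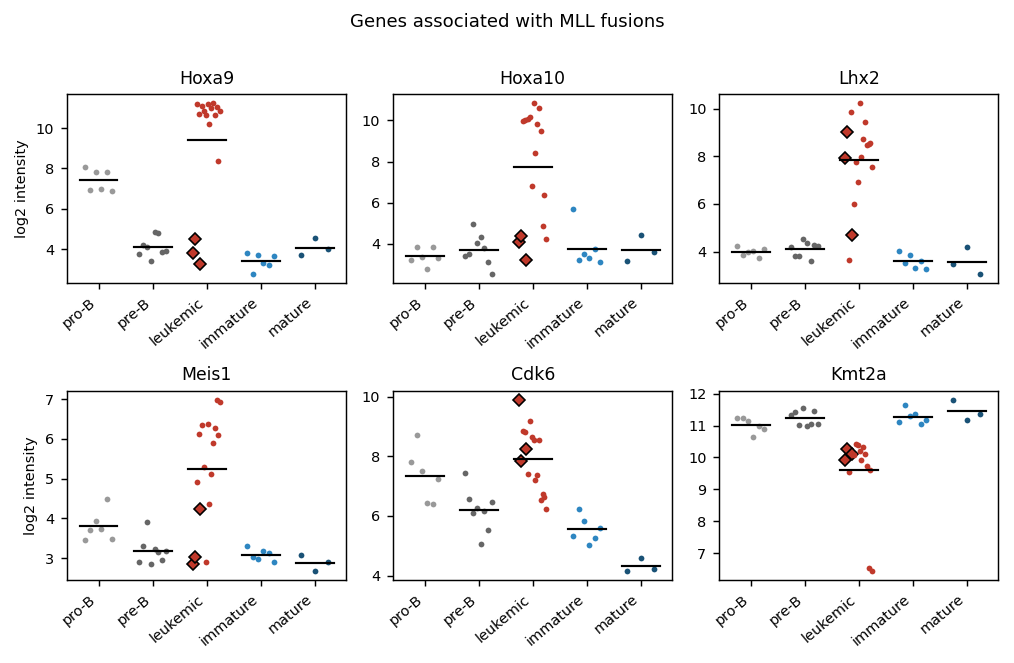
Log2 intensities of 6 genes associated with MLL fusions on single arrays of the 5 groups, with group means as lines; outlined diamonds mark leukemic arrays 116, 117 and 154. These 3 arrays lie at the IgM-positive level for Hoxa9, and arrays 17 and A46 lie far below the rest for Kmt2a.

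Of 14 genes of the BCL2 family, 2 were higher and 1 lower, and 3 and 1 without array 122. Among all genes 16.3% were higher and 15.9% lower, so with array 122 the family was not called more often than all genes. Mcl1, a survival factor, was 2.15-fold lower on 16 of 16 arrays (11.43 ± 0.28, SD, n = 16, against 12.53 ± 0.13, SD, n = 9). Bok, a death effector, was 2.17 higher and Bcl2l1 0.89 higher, the latter at an adjusted p of 0.0442. The Bcl2l1 call was lost in 15 of 25 fits that left out 1 array and with the run as a covariate (0.60). Bcl2 was not called (-0.73, 95% interval -1.66 to 0.20). Of 9 plasma cell genes 3 were lower and 0 higher. These were Xbp1, the factor for secretion (-1.39), Derl3 (-1.13) and Edem1 (-1.03), both of which clear misfolded proteins. Against mature B cells alone Derl3 differed by -0.06 and Edem1 by -0.21, and neither was called. Jchain, which joins IgM pentamers, ranged from 5.27 to 13.36 on IgM-positive arrays and was not called (-1.20). Of 16 interferon response genes 5 were lower and 1 higher, and 9 were lower without array 122. The lower genes were Mx1 (-1.91) and Rsad2 (-1.61), both antiviral effectors, Oasl1 (-1.54), Stat2 (-0.95) and Mx2 (-0.92), and Ifit2 was 0.80 higher. Oasl1, Stat2 and Mx2 were named after their values were seen. Within run 1 the count of lower genes was 0 and within run 2 it was 10. Averaging immature arrays 2 and 3 left 2 lower interferon genes, as did leaving out the 4 IgM-positive arrays of highest myeloid mean, where Rsad2 differed by -0.41 and was not called.

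Markers of other cells differed between the fractions. Of 17 myeloid markers 12 were lower and 0 higher in the leukemic arrays, 15 without array 122 and 7 without the 4 IgM-positive arrays of highest myeloid mean. Their summed level ran from 9.83 to 14.98 on leukemic and from 14.17 to 15.87 on IgM-positive arrays. The neutrophil granule gene Camp had leukemic values from 5.42 to 9.64 and IgM-positive values from 10.45 to 12.87, and S100a8 5.14 to 11.71 and 12.07 to 12.86. Itgam, which defines myeloid cells at the surface, lay under the background limit on average in both groups. Of 12 erythroid markers 7 were lower and 1 higher, the transferrin receptor Tfrc (0.49, named after its value was seen), and 7 and 2 without array 122. Hbb-b2 was lower (-4.69) and Slc4a1, the anion exchanger of red cells, lower (-3.39), while Hba-a1, Epor and Epb42 lay under the limit in both groups. Summed levels ran from 12.90 to 14.08 on leukemic and 12.93 to 13.77 on IgM-positive arrays, and rest mostly on the bright Tfrc, Hba-a2 and Car2. The list mean of 16 of 16 leukemic arrays (highest 6.33) lay below that of every IgM-positive array (lowest 6.41). Of 17 T and NK cell markers 7 were higher and 0 lower, among them Zap70 (2.84) and Thy1, whose IgM-positive mean of 3.55 lay under the background limit so that its difference has no resolved size, with Gzmb, Ncr1, Gzma and Cd28 under the limit in both groups, summed levels of 9.63 to 11.78 on leukemic and 9.52 to 10.21 on IgM-positive arrays, and a count of 6 without array 122 and 3 with the run as a covariate. Of 11 dendritic cell markers 0 were called by limma, 2 higher and 1 lower at an unadjusted p under 0.05, and 1 was lower without array 122. These levels moved with the comparison, and their part in the B-cell genes above was not tested. Leaving out the 4 IgM-positive arrays of highest myeloid mean did not remove the imbalance, since 7 of 17 myeloid markers were still lower. In that fit class II genes were lower in 12 of 14 cases, surface receptors in 15 of 19 and receptor chains in 5 of 5. Mitosis genes were higher in 32 of 33. Homing receptors were lower in 7 of 14 cases in place of 9, and quiescence genes in 16 of 20 in place of 18. Amino acid synthesis and ATF4 genes were higher in 10 of 22 in place of 13.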

How the data were processed

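The deposited table held 1 intensity per probe set and array on a linear scale, which the authors summarised with RMA per the submitters' processing notes, and it was taken to log2. Of 22690 probe sets, 64 controls, 691 with several gene symbols and 1555 with none were left out. The other 20380 represented 12393 genes, each by its probe set of highest mean over 39 arrays. No read depth exists, and the number of arrays limits precision. Symbols came from the platform annotation and promoters from RefSeq (GRCm38.p6).

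The 16 leukemic and 9 IgM-positive arrays were compared in limma 3.58.1 (R 4.3.3, lmFit, eBayes with an intensity trend), with Benjamini-Hochberg adjusted p under 0.05 over all genes. Differences from each stage came from a 3-group fit of the same 25 arrays, and those from normal pre-B from a fit of 24 arrays. On simulated data the pooled fit recovered 75% of genes changed by 1 and 98% of genes changed by 2 on the log2 scale, of 100 each among 12393, with 7 false calls. The simulation changed only 200 genes and drew independent noise, without runs or outlying arrays. In the data 32.2% of genes were called, so these rates need not hold there.

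The text names up to 10 genes per direction with the largest differences among called genes without overlap, at most 6 members that passed and 3 that did not from each of 24 lists, and a preset list; members behind a count of 5 or fewer are named beside it. The members and lists were chosen with earlier results of these data known. The accession numbers form 2 runs, which were handled as a batch although the labels name none. Alternatives were other normalizations, filters, probe set choices, stages, runs and left-out arrays.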

Additional observations from a re-analysis of the deposited data

Results flagged for a closer look

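For 209 named genes, the 9 IgM-positive arrays were searched for 1 array far from the others, and 12 genes had one. Chance alone gives about 1 in 20, so 12 of 209 is near the chance share. The genes are therefore listed as descriptions only. Mature B array 1 was lowest for Iglv1 (11.13, next 11.94), Cd5 (4.69, next 5.10), Cd93 (8.75, next 10.70), Zeb2 (6.49, next 7.64) and Mx1 (7.47, next 8.82). Immature B array 4 was lowest for the class II chains H2-Eb1 (9.43, next 11.24) and H2-Aa (10.27, next 11.49) and for Nop58 (8.93, next 9.32), and highest for Hoxa10 (5.67, next 4.42). Mature B array 3 was highest for the erythroid genes Gata1 (6.46, next 5.49) and Epor (4.93, next 4.33). Mature B array 2 was lowest for Asns (4.84, next 6.41).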

How the results depend on the processing

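Of 144 named genes called, 138 kept their call and direction in every fit that left out 1 array, and 89 in all 41 alternative fits. Within run 1 42 of them lost their call, within run 2 12, and against mature B cells alone 33. The counts of called genes fell to 1584 (938 higher, 646 lower) within run 1 and to 2372 (1241 higher, 1131 lower) against mature B cells alone, which have fewer arrays, and rose to 6466 (3634 higher) with array weights, where the cause was not tested. Other alternatives left these counts within 1.5 times, among them 2785 genes without the 4 IgM-positive arrays of highest myeloid mean and 3696 with immature arrays 2 and 3 averaged, both chosen after seeing the data. Leaving out 1 array gave 3613 to 4228 called genes (1813 to 2202 higher, 1800 to 2111 lower) and 5826 to 6115 genes with an interval within 1 of no difference, against 6025. For immature B the range was 2756 to 2980 (1408 to 1461 higher, 1339 to 1519 lower). For mature B it was 1779 to 2213 (958 to 1091 higher, 748 to 1122 lower), with the count at 1789 without mature B array 1 and 1779 without array 3 in place of 2763. Ighm turned to 0.48 with the mean of its probe sets and to 2.004 without _x_at, _s_at and _a_at probe sets, where Igll1 turned to -1.22. Within run 2 Tsc22d3 turned to -0.90 and Cd3d to -0.0848. No paired analysis was possible because the leukemic arrays share no replicate numbers with the IgM-positive arrays. The number of arrays, mature B above all, and the background limit for dim genes set the precision.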
